A study of Bos taurus with 48 samples.

Results

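Fetal muscle of Piedmontese × Hereford cattle was compared with that of Wagyu × Hereford cattle at 135 and 195 days of gestation. The members are the channels of the 6 arrays with these labels, out of 48 arrays in the series, which carry 12 of its 96 channels. An array carried RNA of 1 animal per cross, in Cy3 and Cy5. All of it was described as coming from the Longissimus muscle, a muscle of the back sampled by biopsy. The 3 arrays of the 60 day stage were left out because they hold a single animal per cross, so that 10 animal codes were compared, 5 of each cross.

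At 135 days the Piedmontese × Hereford animals were GP012, GP672 and GP921, and the Wagyu × Hereford animals were GW625 and GW780. At 195 days they were GP041A and GP041B for Piedmontese × Hereford, and GW024, GW067 and GW600 for Wagyu × Hereford. GW780 and GP041A were each on 2 arrays and entered as the mean of their channels. All animals are crosses with Hereford, so each group carries its named breed in part of the genome only. The sex of the fetuses and their MSTN genotype are not given in the sources used here. Beyond the animal codes the labels do not say whether samples are separate animals, and GP041A and GP041B share a number, so p-values measure the spread between animal codes. Piedmontese × Hereford was in Cy5 on 4 of the 6 arrays, and dye was a term of the fit. Levels are log2 intensities, and every difference is Piedmontese × Hereford minus Wagyu × Hereford on that scale, with its standard error (SE).

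Piedmontese is a breed known for its heavy muscling, which is linked to a variant of MSTN, the gene of myostatin. Myostatin is a secreted factor of the TGF-beta family that restrains the growth of muscle. It binds an activin receptor at the cell surface and signals through SMAD proteins, and follistatin (FST) can hold it back. Wagyu is known for fat deposited within the muscle. Muscle fibres form before birth in cattle, and slow, oxidative fibres and fast fibres are told apart by the myosin, troponin and other contractile proteins they use.

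One library went against its tissue label. In GP672, the Cy3 channel of the 135 day replicate 2 array, 1723 genes (11.7%) lay more than 1 log2 unit from the mean of the other animals of that age. In the other 9 animals, each set against the others of its age without GP672, there were 34 to 113 such genes. MYL1, a light chain of fast muscle myosin, was at 8.44 in GP672 and between 17.13 and 17.99 in all other channels. ACTA1, skeletal muscle actin, was at 9.97 there, MYOD1, a master regulator of myogenesis, at 8.96, and FABP4, a fatty acid carrier of fat cells, at 16.63. All 12 of the skeletal muscle markers measured were more than 1 unit lower in GP672, by a median of -4.61, and MSTN and TTN were not well above background. Of the 24 genes of adipogenesis and lipid storage, 19 were more than 1 unit higher, with a median of 3.27.

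Of 6 genes of catecholamine and steroid hormone synthesis, chosen after their values were seen, 5 were also more than 1 unit higher in GP672. The exception was CYP17A1, at 8.73 in GP672 and between 8.23 and 8.88 in the other animals. DBH, which makes noradrenaline, was at 15.25 and CYP21A2, a steroid hydroxylase, at 13.86. The Cy5 channel of the same array, GW780, had DBH at 11.6, whereas the other channel of GW780, on the replicate 3 array, had it at 7.01 and not well above background. CYP21A2 stood at 9.52 and 7.17 in these 2 channels of GW780. Results are therefore given over all 10 animals and again over the 5 arrays without this one, which leave 9 animals, 4 of them Piedmontese × Hereford, with GW780 from its other array. On those 5 arrays both 135 day Piedmontese × Hereford animals were in Cy5 and both Wagyu × Hereford animals in Cy3, so dye was separated from cross by the 195 day animals alone.

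**Figure D1:**
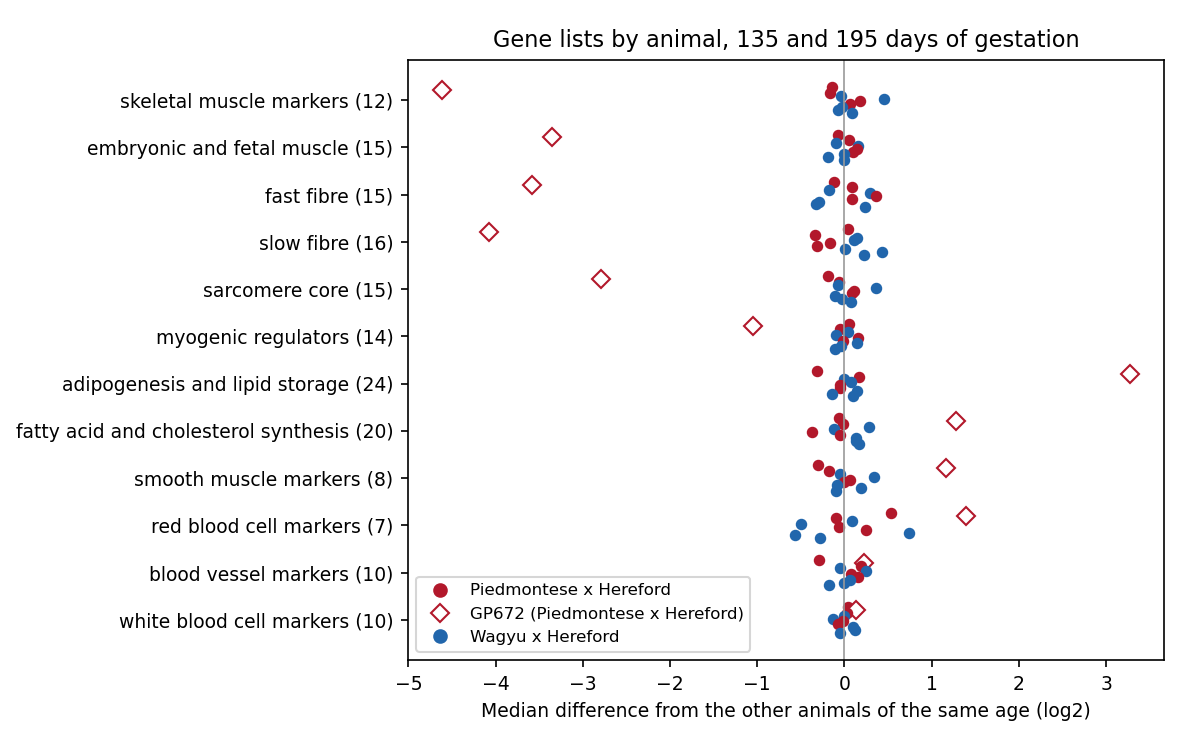
Each point is 1 of the 10 fetal animals, and the x axis gives the median, over the genes of a list, of the log2 difference from the other animals of the same age. GP672 was left out of those other animals. The number of genes is in brackets, red is Piedmontese × Hereford, blue is Wagyu × Hereford, and the open diamond is GP672, which lies at -4.61 for skeletal muscle markers and 3.27 for adipogenesis and lipid storage while the other animals lie near 0.

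The skeletal muscle markers were well above background in every other fetal channel, and their mean level lay between 14.44 and 15.12 in the other Piedmontese × Hereford animals and between 14.55 and 15.11 in the Wagyu × Hereford animals. A further split of the animals crossed the breed groups. BI535042, BE808926 and AW313543, unnamed transcripts that the array file places close together, were at 11.56 to 15.56 in GP012, GP921, GW625, GP041A and GW600, and at 5.94 to 10.27 in the other 5 animals. CB440118, described on the array as similar to the Y-linked gene UTY, was at 6.28 to 6.78 in the former and 7.99 to 8.74 in the latter, and its probe was not well above background in any channel of the former. These transcripts were chosen after their values were seen, and the part of this split in the cross differences was not tested. It separates GP041A from GP041B, and it leaves 3 and 2 animals of Piedmontese × Hereford and 2 and 3 of Wagyu × Hereford on its sides. That count includes GP672. On the 5 arrays without it, GP041B was the only Piedmontese × Hereford animal on the side of low BI535042. GP012 and GP921, the Piedmontese × Hereford animals left at the earlier age, were both on the other side. The split was thus less even between the crosses on those arrays.

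No gene differed between the crosses in fetal muscle after adjustment over the 14705 genes tested. By limma with Benjamini-Hochberg adjustment, 0 genes (0%) passed at 10 animals, and the lowest adjusted p was 0.447, for KLK12. At an unadjusted p under 0.05 there were 504 genes (3.43%), 223 of them higher (1.52%) and 281 lower (1.91%) in Piedmontese × Hereford. On the 5 arrays 0 genes (0%) passed and 536 (3.65%) had an unadjusted p under 0.05, 216 higher (1.47%) and 320 lower (2.18%). With the dye effect estimated over all 48 arrays removed first, the 5 arrays gave 0 genes (0%) again, 680 (4.62%) at an unadjusted p under 0.05, and a lowest adjusted p of 0.301. A fit of the 12 channels with the correlation of channels on a spot called 5 genes, which counts channels of 1 animal as separate, and fits of the deposited log ratios and with animal weights called 1 gene each. The groups did not overlap, in the same direction at both ages, for 0.578% of genes higher and 0.728% lower in Piedmontese × Hereford with 10 animals, and for 1.33% and 1.69% on the 5 arrays.

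MSTN did not differ detectably between the crosses. At 135 days its level was 9.37 in GP012, 8.73 in GP921 and 6.65 in GP672, against 8.59 in GW625 and 9.10 in GW780. At 195 days it was 8.92 in GP041A and 8.95 in GP041B, against 8.66 in GW024, 9.18 in GW067 and 9.09 in GW600. The groups overlapped at both ages once GP672, in which the probe was not well above background, was set aside. The difference was -0.57 (SE 0.41, adjusted p = 0.925 by limma) over 10 animals and 0.02 (SE 0.20, adjusted p = 1) on the 5 arrays.

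The list of myostatin and activin signalling had a median difference of -0.01 over 10 animals and 0.01 on the 5 arrays, where the median of all genes was -0.01. Of its 23 genes tested, 0 had an unadjusted p under 0.05 over 10 animals. On the 5 arrays 1 was higher and 1 lower, beside 1.47% and 2.18% of all genes. A single gene each way is too few to be told apart from those shares. The lower one was FST, at 11.72 and 11.75 in GP012 and GP921 and at 11.22 and 11.33 in GP041A and GP041B. In Wagyu × Hereford FST was at 11.83 in GW625 and 12.07 in the remaining channel of GW780 at 135 days and between 11.32 and 11.88 at 195 days. Without GP672, whose level was 12.23, each age had its Piedmontese × Hereford animals at or below the range of the others, apart from GP041B, which lay just above GW067. The difference was -0.25 (SE 0.17) over 10 animals and -0.39 (SE 0.14, adjusted p = 1 by limma) on the 5 arrays. The higher one was CDKN1A, an inhibitor of the cell cycle, at -0.58 (SE 0.72) with GP672 and 0.52 (SE 0.16, adjusted p = 1 by limma) without its array, where it was 0.18 (SE 0.21) with the 48-array dye effect removed. FURIN, a protease that processes precursors of secreted factors, differed by 0.22 (SE 0.10) and 0.11 (SE 0.10), and TCAP, a sarcomere protein, by -0.91 (SE 0.47) and -0.24 (SE 0.28).

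The lowest p-values over 10 animals belonged to a pair of serine proteases, neither of which passed. KLK12, a kallikrein-related peptidase, was at 7.65, 8.53 and 7.91 in the 135 day Piedmontese × Hereford animals GP012, GP672 and GP921, and at 7.25 and 6.36 in GW625 and GW780. By 195 days it stood at 8.97 and 9.28 in GP041A and GP041B, and at 8.27, 7.69 and 6.46 in GW024, GW067 and GW600. Every Piedmontese × Hereford animal was above every Wagyu × Hereford animal of its age, and within an arm and age the channels in Cy3 read higher than those in Cy5. Its probe was well above background in all 6 Piedmontese × Hereford channels and in 1 of 6 Wagyu × Hereford channels (GW024). The size of the difference thus rests on values near background. As 6 of the 12 channels were needed, KLK12 was tested only through the cross in which it was higher. The difference was 1.72 (SE 0.21, adjusted p = 0.447 by limma) over 10 animals, 1.86 (SE 0.28, adjusted p = 0.88) on the 5 arrays, and 1.28 (adjusted p = 1) there with the 48-array dye effect removed. Among the 12257 genes well above background in all 12 channels, which leave KLK12 out, the lowest adjusted p was 0.908 by limma.

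PRSS2, a digestive trypsinogen of the pancreas, had the same order of animals. It was at 8.22, 9.39 and 8.79 in the 135 day Piedmontese × Hereford animals and at 7.50 and 6.73 in the Wagyu × Hereford animals. The 195 day levels were 10.17 and 10.25 against 9.27, 8.10 and 7.02. The probe was not well above background in 1 channel of GW780. The groups did not overlap at either age, and the difference was 2.18 (SE 0.30, adjusted p = 0.534 by limma) over 10 animals and 2.29 (SE 0.39, adjusted p = 0.88) on the 5 arrays. Animals in Cy3 alone read above those in Cy5 alone within each arm and age that had both. With the 48-array dye effect removed the 5-array difference was 1.69 (adjusted p = 0.963 by limma).

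SPON1, an extracellular matrix protein first known from the nervous system, was at 9.45, 9.56 and 9.38 against 9.05 and 9.05 at 135 days. The later animals had 9.87 and 9.94 against 9.60, 9.51 and 9.14. The groups did not overlap, and the difference was 0.51 (SE 0.08, adjusted p = 0.534 by limma) over 10 animals and 0.56 (SE 0.10, adjusted p = 0.88) on the 5 arrays. MYC, a transcription factor of cell growth, was at 11.43, 12.31 and 11.30 against 11.34 and 11.10 at 135 days, where GP921 lay below GW625, and at 11.17 and 11.32 against 10.73, 11.02 and 10.42 at 195 days. Its difference was 0.65 (SE 0.13) and 0.53 (SE 0.12), with adjusted p = 0.925 and 1 by limma. AP5Z1, a subunit of an adaptor complex of vesicle traffic, and LOC509104, described as similar to a sorting nexin, were the other genes of lowest p among those higher in Piedmontese × Hereford, with differences of 0.43 (SE 0.09) and 0.37 (SE 0.08).

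MVK, mevalonate kinase of the cholesterol pathway, was among the lowest p-values on the 5 arrays. It was at 14.10 in GP012 and 13.83 in GP921 against 13.60 and 13.51 at 135 days, and at 13.59 and 13.80 against 13.19, 13.23 and 13.21 at 195 days. GP672 was at 13.66, and the groups did not overlap with or without it. The difference was 0.39 (SE 0.11) over 10 animals and 0.49 (SE 0.10, adjusted p = 0.89 by limma) on the 5 arrays. AW427787, an unnamed transcript, shows how far GP672 weighed: it was at 8.62 there and at 10.77 and 11.10 in GP012 and GP921, so that its difference was 0.07 (SE 0.43) with GP672 and 0.69 (SE 0.12, adjusted p = 0.88 by limma) without its array. C23H6orf52 differed by 0.36 (SE 0.12) and 0.53 (SE 0.10), and by 0.30 on the 5 arrays with the 48-array dye effect removed.

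**Figure D2:**
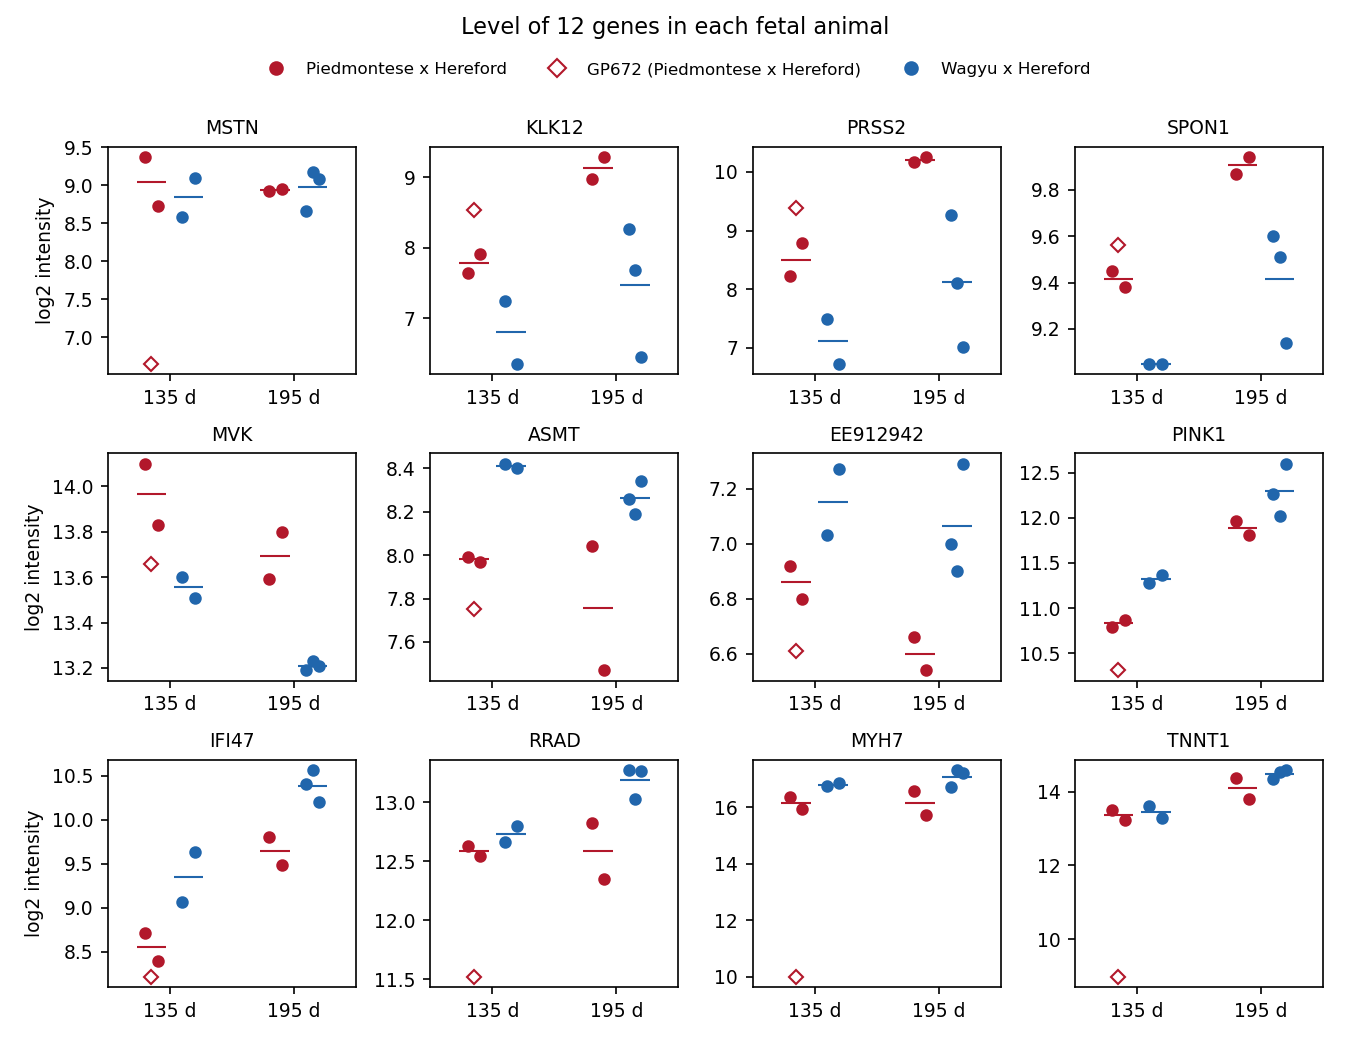
Each panel gives the log2 intensity of 1 gene in each fetal animal at 135 and 195 days, with lines at the mean of each group without GP672, which is the open diamond. KLK12, PRSS2, SPON1 and MVK lie higher and ASMT, EE912942, PINK1, IFI47, RRAD and MYH7 lower in Piedmontese × Hereford at both ages, none with an adjusted p under 0.05, while MSTN overlaps, and the y axes do not start at 0.

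Among the genes lower in Piedmontese × Hereford, PINK1, a kinase that marks damaged mitochondria, was at 10.79, 10.31 and 10.87 in GP012, GP672 and GP921 against 11.28 and 11.37 in GW625 and GW780. At 195 days it was at 11.97 and 11.81 against 12.26, 12.02 and 12.60. No animals of opposite crosses overlapped within an age. The difference was -0.64 (SE 0.11, adjusted p = 0.823 by limma) over 10 animals and -0.57 (SE 0.12, adjusted p = 1) on the 5 arrays.

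ASMT, which makes the last step of melatonin synthesis, was at 7.99, 7.75 and 7.97 against 8.42 and 8.40 at 135 days. The 195 day levels were 8.04 and 7.47 against 8.26, 8.19 and 8.34. The groups did not overlap, and GP041B was the lowest animal. The difference was -0.58 (SE 0.09, adjusted p = 0.534 by limma) and -0.62 (SE 0.11, adjusted p = 0.88) with and without the array of GP672. IFI47, an interferon-inducible GTPase, was at 8.71, 8.22 and 8.40 against 9.07 and 9.63, and later at 9.80 and 9.49 against 10.40, 10.56 and 10.20. Its animals also kept apart at both ages, with a difference of -0.87 (SE 0.15, adjusted p = 0.831 by limma) and -0.75 (SE 0.18, adjusted p = 1).

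RRAD, a small GTPase expressed in muscle that was first described in diabetes, was at 12.63, 11.52 and 12.54 against 12.66 and 12.80 at 135 days. At the later age it was at 12.82 and 12.35 against 13.27, 13.03 and 13.26. GP012 and GW625 were so close that the groups only just did not overlap at the earlier age. The difference was -0.71 (SE 0.15, adjusted p = 0.925 by limma) over 10 animals and -0.58 (SE 0.12, adjusted p = 0.89) on the 5 arrays. HTRA1, a secreted protease that can cleave IGF-binding proteins, differed by -0.41 (SE 0.09) and -0.34 (SE 0.12), and EE912942, an unnamed transcript, by -0.50 (SE 0.08) and -0.48 (SE 0.09). EE912942 was well above background in all 6 Wagyu × Hereford channels and in 2 of the 6 Piedmontese × Hereford channels. Like KLK12, it was thus tested only through the cross in which it was higher. With the 48-array dye effect removed its 5-array difference was -0.32. BP108872, an unnamed transcript with the lowest p on the 5 arrays, differed by -0.62 (SE 0.09) there and by -0.35 (SE 0.17) over 10 animals. STAMBPL1, a deubiquitinase, differed by -0.55 (SE 0.10) and -0.81 (SE 0.23), and CRELD2, a protein of the endoplasmic reticulum, by -0.61 (SE 0.12) and -0.29 (SE 0.21). Their adjusted p by limma was between 0.88 and 0.89 on the 5 arrays and 0.925 over 10 animals.

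The slow fibre genes mostly had negative differences, though none passed the adjustment. MYH7, the slow myosin heavy chain, was at 16.34 in GP012 and 15.93 in GP921 against 16.73 in GW625 and 16.84 in GW780, and GP672 was at 10.01. At 195 days it was at 16.57 in GP041A and 15.73 in GP041B against 16.70, 17.30 and 17.22 in GW024, GW067 and GW600. All Piedmontese × Hereford animals were below all Wagyu × Hereford animals of their age. The difference was -2.45 (SE 0.99, adjusted p = 0.925 by limma) over 10 animals, where GP672 set its size. On the 5 arrays it was -1.04 (SE 0.19, adjusted p = 0.88), and with the 48-array dye effect removed it was -1.05 and had the lowest p of all genes (adjusted p = 0.301).

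On the 5 arrays 15 of the 16 slow fibre genes tested had a negative difference and 1 a positive one, with a median of -0.28, where the median of all genes was -0.01. Of the 16, 6 had an unadjusted p under 0.05 and a negative difference, beside 2.18% of all genes, and 0 passed the adjustment. They were MYH7, MYL2 and MYL6B (myosin light chains), TNNT1 and TNNC1 (slow troponins) and FHL1, a LIM protein of muscle. TNNT1 was at 13.50 and 13.23 in GP012 and GP921 against 13.61 in GW625 and 13.52 in the remaining channel of GW780, where the crosses did not overlap, and at 14.38 and 13.81 against 14.34, 14.53 and 14.58 at 195 days, where they did. Its difference was -0.47 (SE 0.12), that of MYL2 was -0.71 (SE 0.19), that of MYL6B -0.68 (SE 0.21), that of TNNC1 -0.29 (SE 0.11) and that of FHL1 -0.37 (SE 0.16). With the 48-array dye effect removed TNNC1 differed by -0.46. The groups did not overlap at both ages for 2 of the 16 genes, beside 1.69% of all genes.

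By animal, the mean slow fibre level was 13.26 in GP012 and 12.99 in GP921 against 13.36 in GW625 and 13.35 in GW780. At 195 days it was 13.59 in GP041A and 13.39 in GP041B against 13.65, 13.96 and 13.87 in GW024, GW067 and GW600. The Piedmontese × Hereford means were below the Wagyu × Hereford means at both ages, GP041A only just. With GP672, at 9.68, all 16 genes had a negative difference, 4 of them with an unadjusted p under 0.05 beside 1.91% of all genes, and the median was -1.30. With each of the 9 other animals left out of the 5 arrays, the median lay between -0.40 and -0.22 and 13 to 15 genes were negative. Between 1 and 8 genes then had an unadjusted p under 0.05, and the 1 was reached without GP041B, where MYH7 differed by -0.73 and BOLA-DQA5 (-1.95, adjusted p = 0.0182 by limma), a class II antigen gene, was called among all genes. Without GW600 LOC618163 (2.15, adjusted p = 0.0387 by limma) was called. The 16 genes were measured in the same animals, so their shared sign is not 16 separate results. As none of them passed the adjustment, a lower slow fibre level in Piedmontese × Hereford is not established. Even if it held, fewer slow fibres and less of these transcripts per fibre could not be told apart in RNA of whole muscle.

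**Figure D3:**
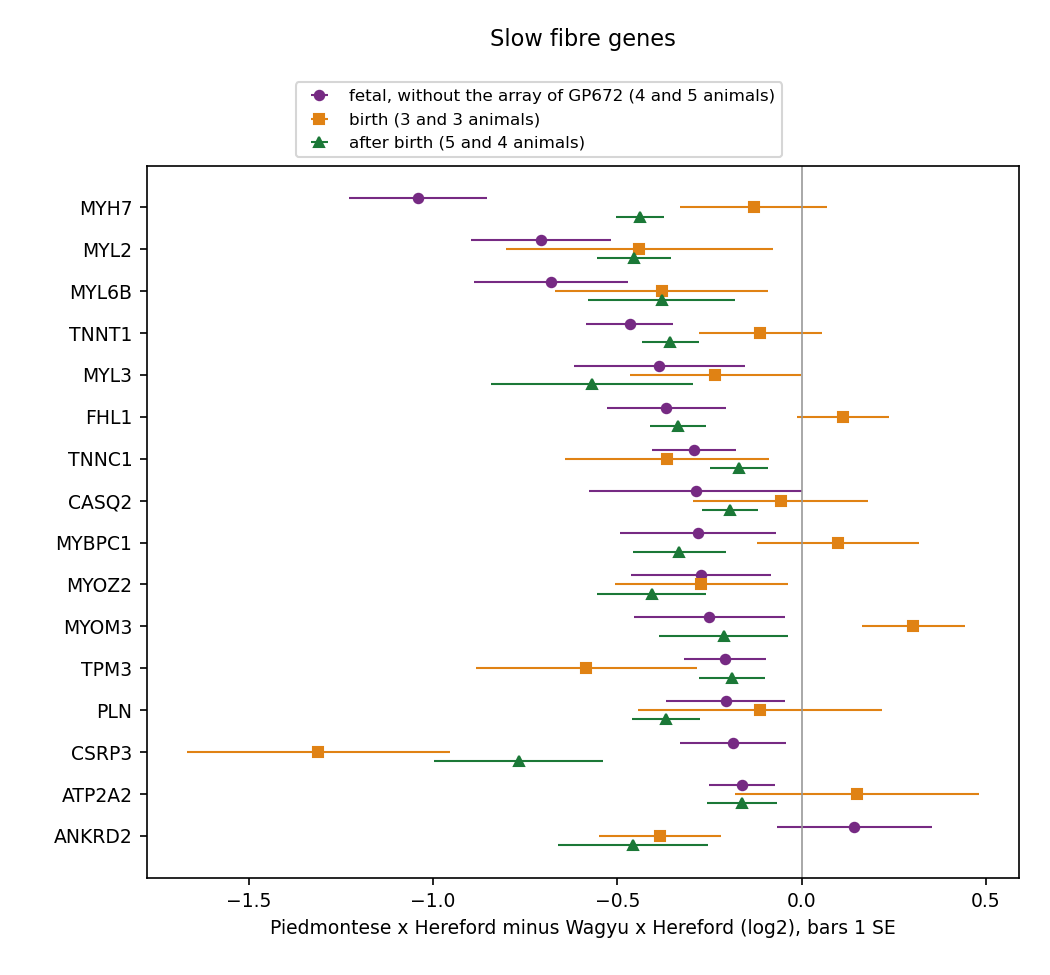
For each of 16 slow fibre genes, points give the log2 difference, Piedmontese × Hereford minus Wagyu × Hereford, with bars of 1 SE, in fetal muscle without the array of GP672 (4 and 5 animals), at birth (3 and 3) and after birth (5 and 4). In fetal muscle 15 of 16 genes lie below 0, at birth 12 and after birth 16, and MYH7 is the lowest fetal gene at -1.04.

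The medians of the other muscle lists rested on GP672. Over 10 animals the fast fibre list had a median of -0.92, the embryonic and fetal muscle list -0.89, the sarcomere core -0.77 and the myogenic regulators -0.31. Without its array these medians were -0.00, 0.16, 0.06 and 0.10. Of the 15 fast fibre genes 7 were then higher and 8 lower, 0 with an unadjusted p under 0.05.

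MYH3, embryonic myosin, differed by -1.68 (SE 1.00) with GP672 and by -0.12 (SE 0.11) without its array, ACTA1 by -2.06 (SE 1.21) and -0.15 (SE 0.10), and MYH1, a fast adult myosin, by -1.57 (SE 0.85) and -0.42 (SE 0.27). With the 48-array dye effect removed MYH3 and ACTA1 each differed by -0.25 without that array, and MYH1 by -0.53. Of the fast fibre list, TPM1 then differed by -0.29, MYL1 by -0.02 and MYL11 by 0.12. MYF6, a late myogenic factor, differed by -1.23 (SE 0.64) and -0.31 (SE 0.17), whereas ID1, an inhibitor of such factors, differed by 0.68 (SE 0.20) and 0.50 (SE 0.18). ACTC1, the cardiac actin that fetal skeletal muscle also uses, was higher without that array. It was at 17.30 and 16.94 against 17.11 and 17.15 at 135 days, where the crosses overlapped, and at 17.41 and 17.44 against 16.79, 16.45 and 16.07 at 195 days, where they did not. The difference was 0.83 (SE 0.19, adjusted p = 1 by limma) there, 0.35 (SE 0.28) with the 48-array dye effect removed, and -1.10 (SE 1.20) with GP672 included.

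The fat genes turned in sign with the same array. The 24 genes of adipogenesis and lipid storage had a median of 0.68 over 10 animals, 22 of them higher, and of -0.11 on the 5 arrays, 18 of them lower and 1 of these with an unadjusted p under 0.05, beside 2.18% of all genes. That gene was FABP4, at 8.96 and 11.33 in GP012 and GP921 against 11.69 and, in the remaining channel of GW780, 10.65 at 135 days, and at 7.51 and 7.45 against 9.71, 7.86 and 9.35 at 195 days. The crosses overlapped at 135 days and not at 195 days. The difference was 0.27 (SE 1.28) with GP672 and -1.50 (SE 0.63, adjusted p = 1 by limma) without its array. CEBPB, a transcription factor of early adipogenesis, differed by 0.90 (SE 0.54) and 0.09 (SE 0.19). The 20 genes of fatty acid and cholesterol synthesis had a median of 0.26 over 10 animals and -0.13 on the 5 arrays, where 18 were lower and 1 of these had an unadjusted p under 0.05, beside 2.18% of all genes. SQLE, squalene epoxidase of the cholesterol pathway, differed by -0.36 (SE 0.20) and -0.42 (SE 0.28), while MVK of the same pathway was higher, as given above.

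**Figure D4:**
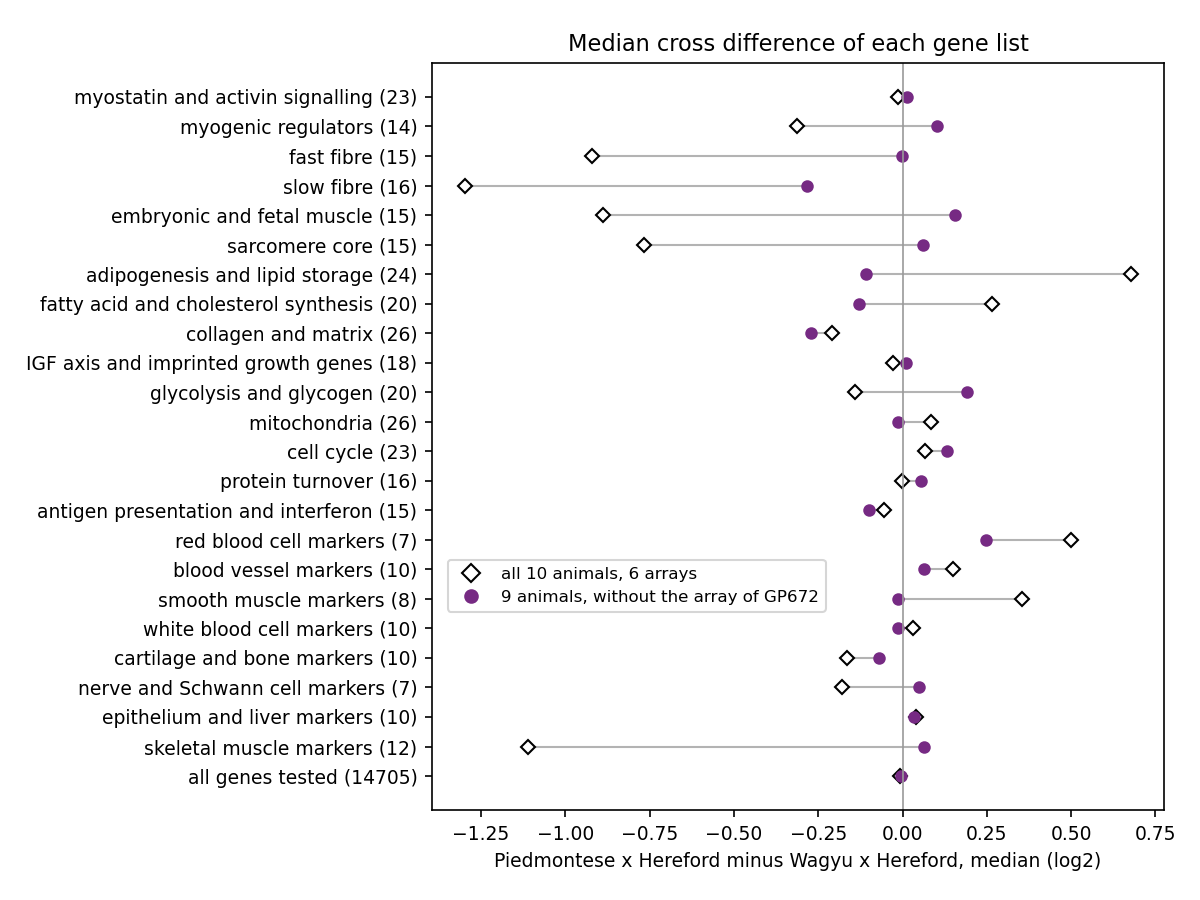
For each gene list, with its number of genes in brackets, the x axis gives the median log2 difference, Piedmontese × Hereford minus Wagyu × Hereford, over all 10 animals (open diamonds) and over the 9 animals without the array of GP672 (filled circles). The fast fibre median goes from -0.92 to -0.00 and that of adipogenesis and lipid storage from 0.68 to -0.11, while that of the slow fibre list stays negative at -0.28 and that of collagen and matrix at -0.27.

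Collagen and matrix genes mostly had negative differences with either set of animals, and none passed the adjustment. Their median was -0.21 over 10 animals, with 23 of 26 genes lower, and -0.27 on the 5 arrays, with 25 of 26 lower. An unadjusted p under 0.05 was reached by 4 and 2 genes, all lower, beside 1.91% and 2.18% of all genes. The groups did not overlap at both ages for 1 and 4 genes, all lower, beside 0.728% and 1.69% of all genes. COL1A2, a chain of type I collagen, was at 15.63, 16.15 and 15.72 in GP012, GP672 and GP921 against 16.56 and 15.97, and at 14.84 and 15.03 against 15.33, 15.66 and 15.29 at 195 days. Only GP672 overlapped with the other cross. The difference was -0.36 (SE 0.12, adjusted p = 0.925 by limma) and -0.42 (SE 0.17, adjusted p = 1), and -0.27 on the 5 arrays with the 48-array dye effect removed.

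THBS4, a matrix protein of muscle and tendon, differed by -1.72 (SE 0.73) and -0.76 (SE 0.17), and SPARC, a collagen-binding protein, by -0.32 (SE 0.13) and -0.28 (SE 0.14), or -0.14 with that dye effect removed. IGFBP6, which binds IGF2, was in the list of the IGF axis, whose 18 genes had medians of -0.03 and 0.01, and it differed by -0.38 (SE 0.12) and -0.37 (SE 0.15). GW625 had the highest mean of the matrix list at 13.52. It was more than 1 unit higher than the other 135 day animals without GP672 for 7 of its 26 genes. At 195 days GW067, also Wagyu × Hereford, had the highest mean at 12.73 and was more than 1 unit higher for 5 of the genes. The mean of cartilage and bone markers in GW625 was the highest of its group as well. The part of these 2 animals in the median of the matrix list was not tested.

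Of the 20 genes of glycolysis and glycogen, 13 were lower over 10 animals, with a median of -0.14, and 17 were higher on the 5 arrays, with a median of 0.19. On the 5 arrays 2 of them had an unadjusted p under 0.05, both higher, beside 1.47% of all genes. PHKA1, a regulatory subunit of phosphorylase kinase in muscle, was at 10.03 and 9.75 in GP012 and GP921 against 9.86 and 9.72, and at 10.67 and 10.75 against 10.21, 10.11 and 10.29 at 195 days. The crosses overlapped at 135 days only, and the difference was 0.23 (SE 0.14) over 10 animals and 0.37 (SE 0.13, adjusted p = 1 by limma) on the 5 arrays. FBP2, the muscle fructose bisphosphatase, ran the other way. It was at 8.21, 8.80 and 7.24 against 9.68 and 11.33, and at 13.26 and 13.67 against 13.86, 14.02 and 13.96, so the groups did not overlap while the level was far higher at 195 days. Its difference was -1.34 (SE 0.51, adjusted p = 0.925 by limma) and -1.10 (SE 0.55, adjusted p = 1), and -1.72 on the 5 arrays with the 48-array dye effect removed.

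On the 5 arrays the 23 cell cycle genes had a median of 0.13 with 21 higher and 0 at an unadjusted p under 0.05, the 26 mitochondrial genes -0.01, the 16 genes of protein turnover 0.06 and the 15 genes of antigen presentation and interferon -0.10. SUCLA2, of the mitochondrial citric acid cycle, differed by -0.32 (SE 0.12) over 10 animals and -0.19 (SE 0.10) on the 5 arrays.

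Markers of other cells were set beside these results. The 7 red blood cell markers had a median of 0.50 over 10 animals and 0.25 on the 5 arrays, and HBA, a haemoglobin chain, differed by 0.75 (SE 0.32) and 0.42 (SE 0.33). AHSP, which stabilises that chain, differed by 0.39 (SE 0.16) and 0.20 (SE 0.13). The mean red blood cell level ran from 11.1 to 11.76 in Piedmontese × Hereford without GP672 and from 11.04 to 11.98 in Wagyu × Hereford. The 10 blood vessel markers had medians of 0.15 and 0.06, and PECAM1, an adhesion molecule of blood vessel walls, differed by 0.31 (SE 0.15) and 0.42 (SE 0.15). The 8 smooth muscle markers had medians of 0.36 and -0.01, the 10 white blood cell markers 0.03 and -0.01, the 10 cartilage and bone markers -0.17 and -0.07, the 7 nerve and Schwann cell markers -0.18 and 0.05 and the 10 epithelium and liver markers 0.04 and 0.04. Of the sex-linked list only 1 gene was tested, the Y-linked ZFY, with differences of -0.14 and -0.13. Its probe was well above background in all 12 channels. ZFY was at 7.63 to 7.81 in GP012, GP921, GW625, GP041A and GW600 and at 7.60 to 7.94 in the other 5 animals. It thus did not follow the split of BI535042. The part of these cells in the cross differences was not tested.

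The cross difference did not differ detectably between 135 and 195 days. Over 10 animals limma called 0 genes (0%) for the difference at 195 days minus that at 135 days, with 486 (3.3%) at an unadjusted p under 0.05, and on the 5 arrays 0 (0%) and 365 (2.48%). The lowest p-values were those of SEMA6A, a guidance receptor (1.01, SE 0.15), PTI, a trypsin inhibitor (-2.65, SE 0.42), and ALDH1A3, which makes retinoic acid (-1.16, SE 0.19), all with adjusted p = 1 by limma. PTI was at 9.99, 11.44 and 9.97 against 9.85 and 9.17 at 135 days, and at 9.84 and 10 against 11.35, 11.89 and 10.96 at 195 days. Its Piedmontese × Hereford animals were above the others at the earlier age and below them at the later age.

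Newborn and older animals of the same crosses, which are other animal codes, gave the values beside which the fetal ones can be read. At birth (3 and 3 animals) limma called 0 genes (0%), with 505 (3.43%) at an unadjusted p under 0.05, and after birth (5 and 4 animals) 0 (0%) and 791 (5.38%). The stage after birth pools arrays labelled with several ages in months. MSTN differed by 0.04 (SE 0.41) at birth and 0.38 (SE 0.20, adjusted p = 0.959 by limma) after birth. KLK12 differed by 0.04 (SE 0.13) at birth and 0.88 (SE 0.43) after birth, and PRSS2 by -0.02 (SE 0.17) and 1.21 (SE 0.61). SPON1 differed by 0.43 (SE 0.29) and 0.05 (SE 0.10), MYC by 0.56 (SE 0.31) and -0.60 (SE 0.19), PINK1 by 0.18 (SE 0.16) and -0.42 (SE 0.16), and RRAD by 0.13 (SE 0.46) and -0.69 (SE 0.25). None of these genes passed at either stage.

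The slow fibre list had mostly negative differences at these stages too, with no gene past the adjustment. At birth 12 of its 16 genes had a negative difference, with a median of -0.18 and 1 gene lower at an unadjusted p under 0.05 beside 1.39% of all genes. After birth all 16 were negative, with a median of -0.36 and 10 lower at an unadjusted p under 0.05 beside 3.07% of all genes. MYH7 differed by -0.13 (SE 0.20) at birth and by -0.44 (SE 0.07, adjusted p = 0.128 by limma) after birth. The collagen and matrix list had medians of -0.22 at birth and 0.07 after birth, where 20 of 26 genes were higher. Glycolysis and glycogen genes had medians of 0.23 and 0.13, with 7 of 20 higher at an unadjusted p under 0.05 after birth beside 2.31% of all genes.

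No gene passed the test of whether its cross difference changed between fetal and newborn muscle. Over 16 animals limma called 0 genes (0%) for the fetal minus the newborn difference, with 698 (4.75%) at an unadjusted p under 0.05, and without the array of GP672 0 (0%) and 620 (4.22%). The lowest p-values were those of RAB9A, a GTPase of vesicle transport, and CISH, an inhibitor of cytokine signalling. RAB9A differed by -0.19 (SE 0.10) in fetal muscle and 0.95 (SE 0.15) at birth, and CISH by 0.33 (SE 0.08) and -1.73 (SE 0.26). The fetal minus newborn values were -1.15 (SE 0.16) and 2.12 (SE 0.31), each with adjusted p = 0.0848 by limma, and 0.307 for both without the array of GP672. With the 48-array dye effect removed first both were called, with an adjusted p of 0.0267. AW481864, an unnamed transcript, had a value of -1.25 (SE 0.22, adjusted p = 0.371 by limma).

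At 60 days, where each cross was 1 animal, the difference was -0.34 for MSTN, -0.84 for KLK12, -1.29 for PRSS2, 0.18 for SPON1 and -0.30 for MYH7, with no test. KLK12 and PRSS2 had the opposite sign there from that at 135 and 195 days. The animals of the crosses also differed at 60 days in transcripts of the split described above, by -7.28 for BI535042 and 1.71 for CB440118. Cross, animal and that split cannot be told apart at this age.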

How the data were processed

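RNA was hybridised to 2-colour Agilent bovine arrays with swapped dyes. The authors deposited, for each spot and channel, the mean intensity, the local background intensity and flags, made with Agilent Feature Extraction 9.5.1 per the submitters' processing notes. Log10 ratios (Cy5 to Cy3) per spot, deposited with them, served only as an alternative. The series table of ratios and the authors' own normalized values were not used here.

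In limma 3.58.1 under R 4.3.3, intensities were corrected by normexp (offset 50), controls and spots marked as outliers were dropped, and values were normalized by loess within and Aquantile between the 48 arrays and put on the log2 scale. The RefSeq table for ARS-UCD2.0 named the gene of 16737 out of 21475 probes and the others kept the name of the file, with older symbols replaced (GDF8 is MSTN). The array files name no genome build, so no positions are given. Probes needed a signal well above background in 6 or more of the 12 fetal channels (15787 probes), and probes of a gene were averaged, which left 14705 genes with a value on all 6 arrays. On the fetal arrays 63.4% to 75.9% of probes were well above background, 3 to 39 spots were outliers and 0 were saturated. The number of arrays limits the precision.

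Each animal entered limma (lmFit, eBayes, two-sided) once, with cross, age and dye (share of its channels in Cy5) as terms and Benjamini-Hochberg adjustment at 0.05. The difference after birth used values with the mean of each time point and the 48-array dye effect removed. Its 24 arrays were labelled with several ages in months, and most of their animals recurred across ages. The 48 arrays also include Belmont Red cattle on weight loss or growth diets. Those cattle entered the normalization between arrays and the 48-array dye effect, but no cross difference. Named genes were MSTN, the 6 of lowest p in each direction, up to 2 of lowest p per list, and the 3 of lowest p for age and for birth. The same rule was applied to the 5 arrays after the data were seen. MYL2, MYL6B and TNNC1 were named after their values were seen. The members and the gene lists were chosen with earlier results of these data known. Arrays of 1 replicate number share a slide, and the number pairs the animals of an array only. The scripts were tested on simulated data. The alternatives were other background corrections, normalizations, probe filters, dye terms and units of replication, single slides and ages, and each animal left out.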

Additional observations from a re-analysis of the deposited data

Results flagged for a closer look

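In 14 of 88 groups of animals tested, 1 animal lay apart from the others by Dixon's gap ratio (gap to the nearest animal over the range of the group). Chance would give about 1 in 20 if the groups were independent. They share animals, and some lists share genes, so the 14 are not separate results and cannot be set against that rate. In 13 of the 14 that animal was GP672 among the 5 Piedmontese × Hereford animals. It was the lowest for AW427787 (0.826) and for the mean level of the myogenic regulators (0.77), fast fibre (0.79), slow fibre (0.711), embryonic and fetal muscle (0.825), sarcomere core (0.836), glycolysis and glycogen (0.855), protein turnover (0.862), cartilage and bone markers (0.725) and skeletal muscle markers (0.812). It was the highest for adipogenesis and lipid storage (0.735), fatty acid and cholesterol synthesis (0.766) and mitochondria (0.825). The remaining one was GW625, the highest of the 5 Wagyu × Hereford animals for cartilage and bone markers (0.803). The cause of these gaps was not tested.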

How the results depend on the processing

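The count of 0 called genes in fetal muscle became 1 with the deposited log ratios (BOLA-DQA5), 5 with the intraspot correlation of 12 channels (KLK12, PRSS2, SPON1, EE912942 and PINK1) and 1 with animal weights (KLK12). It stayed 0 in the others of the 31 settings tried, each animal left out among them, and the number at an unadjusted p under 0.05 ran from 85 to 2299. With the array as a replicate block (6 log ratios) 0 genes were called and 1581 had an unadjusted p under 0.05. Arrays of 1 replicate number share a slide, and with slide as a block 0 were called and 601 had an unadjusted p under 0.05. With the 48-array dye effect removed, 1 gene was called at birth (POLR1H) and 2 for fetal minus birth (RAB9A and CISH), and leaving out each animal after birth gave 0 to 1 (HDDC2 without GP130, JOSD2 without GP273). With the 48-array dye effect removed, MSTN differed by 0.63 within slide 1 and -1.33 within slide 2. On the 135 and 195 day arrays of either slide each cross kept the same dye, so a remaining dye effect cannot be told from cross. Slide 2 holds the array of GP672, where MSTN was at 6.65 and not well above background. Chosen after the data were seen, leaving out the 135 day replicate 2 array gave 0.02 for MSTN, 0.08 with the 48-array dye effect removed as well, and list medians of 0.103 (myogenic regulators), -0.284 (slow fibre), 0.156 (embryonic and fetal muscle) and -0.013 (smooth muscle markers). FABP4 was -1.50 without that array, -1.22 with the 48-array dye effect removed as well, -1.46 with animal weights, -0.23 with that dye effect removed over all 10 animals, -0.27 without a dye term, -0.08 with slide as a block, -0.13 with the deposited ratios and -1.56 at 195 days alone. In the same order, without the array, with the dye effect removed as well, with weights and at 195 days alone, CDKN1A was 0.52, 0.18, 0.47 and 0.56 and ACTC1 was 0.83, 0.35, 0.72 and 1.04. At 135 days alone AW427787 was -1.04, BP108872 0.05, CRELD2 0.30, FST 0.00 and PHKA1 -0.10, and with GP041A and GP041B as 1 animal AW427787 was -0.22. Leaving out each animal gave -1.35 to 0.48 for CDKN1A, -2.43 to 0.65 for ACTC1, -1.46 to 1.54 for FABP4 and -0.38 to 0.69 for AW427787. The cause was not tested.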

Other observations

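The channels of GW780 differed where GP672 was high. Over the 200 genes highest in GP672 relative to the other 135 day animals, the Cy5 channel of GW780 on the array shared with GP672 exceeded its Cy3 channel on the replicate 3 array by a median of 0.18 with an SD of 0.87, against an SD of 0.22 over all genes. PHLDA2, an imprinted gene best known from placenta, was at 15.76 in GP672 and at 11.71 and 7.57 in these channels of GW780. CIDEC, a lipid droplet protein, was at 15.1 in GP672 and at 12.97 and 9.58, whereas STAR, which brings cholesterol into mitochondria for steroid synthesis, was at 12.96 in GP672 and at 7.61 and 7.66. The raw intensity of DBH was 26599 in GP672, 4152 in the Cy5 channel of GW780 and 143 in its Cy3 channel. These genes were chosen after their values were seen.

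KDM6A, ZRSR2 and USP9X, which are X-linked, followed the split of BI535042 and CB440118, whereas the Y-linked ZFY did not, as given above. KDM6A was at 8.84 to 9.17 in GP012, GP921, GW625, GP041A and GW600 and at 8.18 to 8.69 in the other 5 animals.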
